A study of Rattus norvegicus with 9 samples.

Results

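Among the 276 mature miRNAs listed for rat serum, 58 were not miRBase entries but predictions made by the authors from the reads, and they are described here. They were taken as every entry whose name carries the table's mark for a predicted miRNA, so that no measured value entered the choice, and the 218 miRBase-named entries served as the comparison. The serum came from male wild-type Sprague-Dawley rats, operated on at an age of 4 weeks and sampled 4 weeks after surgery, with 1 library per rat. The sham group (n = 3) had a sham operation, and in the pulmonary artery banding (PAB) group (n = 6) the pulmonary artery was narrowed with a ring near its origin, which loads the right ventricle (RV). Only some of the operated rats of each group were sequenced, and the paper does not say how these were chosen. The ring loads the RV without a disease of the lung vessels, which limits it as a model of pulmonary hypertension.

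A miRNA is a short RNA cut from a hairpin precursor, first by Drosha in the nucleus and then by Dicer in the cytoplasm, and loaded into an Argonaute protein that it guides to messenger RNAs through its seed, bases 2 to 8. The name ending -5p or -3p says from which arm of the hairpin the RNA came. Programs that predict miRNAs place sequenced reads on the genome and look for stacks of reads inside a sequence that folds into such a hairpin. Fragments of other RNAs can also stack in this way. Serum holds miRNAs from blood cells, platelets, endothelium, liver and other tissues, carried in vesicles or bound to proteins. No target, tissue or function is annotated for the 58 predicted miRNAs in the sources used here, so they are ordered below by abundance and by arm.

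The names are given without the marks that the table puts before them, which are the species prefix for both kinds and, for the predicted miRNAs, also the word that marks a prediction. What remains is the authors' own number, written without a hyphen after miR, as in predicted miR352-3p. This number is not read here as a miRBase number. By number and arm, 6 of the 58 coincide with a miRBase-named miRNA of the same table, and predicted miR375-3p (108 reads in all) is a different entry from miR-375-3p (1131 reads), a miRNA of pancreatic islets and other endocrine cells. Likewise predicted miR425-3p (226 reads) stands beside miR-425-3p (650 reads), predicted miR191-5p (80 reads) beside miR-191a-5p (95895 reads), predicted miR139-5p (2 reads) beside miR-139-5p (1789 reads), predicted miR183-5p (3 reads) beside miR-183-5p (29 reads) and predicted miR199-5p (42 reads) beside miR-199a-5p (3 reads). Of the 218 miRBase-named miRNAs 196 were matched by name to a RefSeq sequence of the rat assembly GRCr8, and of the 58 predicted miRNAs 0 were, so the bases and genome positions of the predicted miRNAs are not given here. The RefSeq sequences of the 6 namesakes are shown so that they are not taken for the predicted miRNAs, and capitals mark the seed.
miR-191a-5p: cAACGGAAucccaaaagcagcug
miR-425-3p: aUCGGGAAuaucguguccgcc
miR-375-3p: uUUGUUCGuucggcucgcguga
miR-139-5p: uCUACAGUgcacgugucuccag
miR-183-5p: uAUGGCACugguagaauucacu
miR-199a-5p: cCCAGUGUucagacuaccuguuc
The 6 seeds all differ from each other. miR-191a-5p (chr8:118142641-118142663, plus strand, GRCr8) and miR-425-3p (chr8:118143135-118143155, plus strand) lie next to each other in the rat genome. The 4 other miRBase-named miRNAs with the largest mean share of the miRNA reads are the reference for abundance below, and let-7b-5p and let-7c-5p share a seed.
let-7b-5p: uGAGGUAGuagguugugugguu
let-7c-5p: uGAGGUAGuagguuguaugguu
miR-24-3p: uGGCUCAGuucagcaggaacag
miR-23a-3p: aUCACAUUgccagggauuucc

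Sham libraries held 56231 to 65313 miRNA reads and PAB libraries 19477 to 64455, a small part (0.101% to 0.517%) of the totals of about 12630000 to 19250000 reads that the authors' RPM (reads scaled to a fixed library total) implies. Sham library 2 stood apart with 217 miRNAs detected, where a miRNA counts as detected from 1 read. miRNAs of red blood cells (4 of 6 listed were in the table) summed to 7.60 to 50.8 RPM in sham rats and 33.3 to 209 RPM in PAB rats, those of white blood cells (2 of 4) to 1.27 to 178 and 0.065 to 212 RPM, and those of platelets and endothelium (2 of 2) to 724 to 1496 and 114 to 1095 RPM. The last sum was mostly miR-191a-5p (672 to 1480 and 113 to 1093 RPM), with miR-126a-3p at 15.9 to 52.0 and 0.783 to 27.5 RPM. Among the red cell miRNAs, miR-451-5p, miR-486 and miR-16-5p had the higher mean in PAB rats. miR-25-3p had it in sham rats (4.07 against 0.0863 RPM). Of the 209 RPM in PAB library 6, miR-16-5p held 190 RPM. The miRNAs of striated muscle (3 of 4) summed to 2.01 to 47.2 and 0.624 to 63.2 RPM, and miR-122-5p, of liver, had 30.0 to 162 and 0 to 106 RPM. The highest muscle sums were mostly miR-206-3p, with 34.2 RPM in sham library 2 and 62.9 RPM in PAB library 3. Its mean was 11.7 RPM in sham rats and 24.5 RPM in PAB rats. The means of miR-133a-3p (5.87 and 0.778 RPM) and miR-499-5p (1.36 and 0.065 RPM) went the other way. As a measure of red cell lysis, miR-451-5p over miR-23a-3p on the log2 scale ran from −8.07 to −0.49 over the 9 libraries. It was −8.07, −6.22 and −1.59 in the sham libraries. In PAB libraries 1 to 6 it was −0.49, −1.20, −2.11, −1.72, −7.45 and −1.30. The part of blood cell content in the values of the predicted miRNAs was not tested, and in serum fewer contributing cells cannot be told apart from less RNA per cell.

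The predicted miRNAs were a minor part of the serum miRNA reads. Together they held 24952 reads, 5.70% of all miRNA reads, against 412486 reads (94.3%) in the miRBase-named miRNAs. The highest of them, predicted miR9-3p, had 3486 reads over the 9 libraries, fewer than any of the 5 most abundant miRBase-named miRNAs, which ran from 19376 reads for miR-23a-3p to 95895 for miR-191a-5p. The median total was 11 reads for a predicted miRNA and 19 for a miRBase-named one. In the sham libraries the predicted miRNAs took 6.83%, 6.54% and 2.48% of the miRNA reads, and in PAB libraries 1 to 6 they took 11.1%, 4.17%, 6.70%, 7.97%, 4.56% and 4.93%. The groups overlapped, with the lowest value in sham library 3 and the highest in PAB library 1, which was also the library with the fewest miRNA reads. The mean share was 5.29% ± 2.43 (SD, n = 3) in sham rats and 6.57% ± 2.63 (SD, n = 6) in PAB rats, a difference of 1.28 percentage points (exact permutation test, two-sided over the 84 splits, p = 0.536, adjusted p = 0.696 over 13 values compared in this way). As summed RPM, which refers to all reads of a library, the direction was the other way, with 230.2 ± 137 RPM (SD, n = 3) and 153 ± 57.3 RPM (SD, n = 6), again within the spread between rats (exact permutation test, p = 0.310, adjusted p = 0.561).

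**Figure D1:**
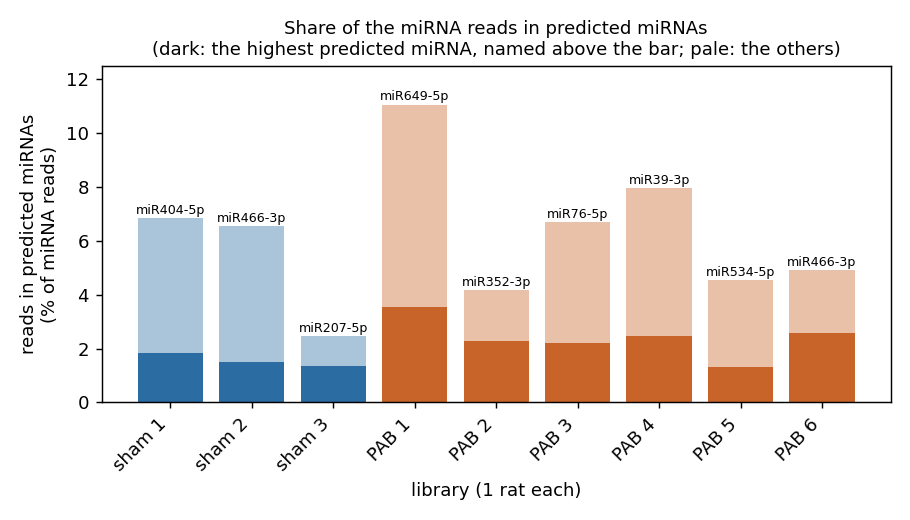
Share of the miRNA reads in predicted miRNAs (y axis, % of the miRNA reads of the library) in each of the 9 libraries (x axis, sham in blue, PAB in orange, 1 rat each). The dark part of a bar is the predicted miRNA with the most reads in that library, named above it, and 8 different miRNAs hold this place, with shares of the predicted reads from 23.0% to 54.6%.

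Which predicted miRNA led differed from rat to rat. In the sham libraries it was predicted miR404-5p with 1203 reads, predicted miR466-3p with 983 reads and predicted miR207-5p with 762 reads. In PAB libraries 1 to 6 it was predicted miR649-5p (688 reads), miR352-3p (1467), miR76-5p (588), miR39-3p (1236), miR534-5p (786) and miR466-3p (764). Only predicted miR466-3p led in more than 1 library. The leading miRNA made up 34.9% ± 17.2 (SD, n = 3) of a sham library's predicted reads and 38.5% ± 11.6 (SD, n = 6) of a PAB library's (exact permutation test, p = 0.536, adjusted p = 0.696), and the 3 leading ones together made up 49.0% (sham library 2) to 87.2% (sham library 3). Over all libraries the 10 most abundant predicted miRNAs, each with at least 1251 reads, held 82.9% of the predicted reads, and the 29 least abundant held 73 reads in all.

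Among these 10 abundant miRNAs the reads came and went between rats of the same group. Predicted miR9-3p had 1187, 9 and 360 reads in sham rats 1 to 3 and 1, 590, 152, 761, 250 and 176 reads in PAB rats 1 to 6. It was 1 of 2 predicted miRNAs seen in all 9 libraries, and its lowest values, in sham library 2 and PAB library 1, fell in both groups. Predicted miR76-5p had 0, 723 and 0 reads in sham rats and 17, 0, 588, 578, 689 and 66 reads in PAB rats. Predicted miR39-3p had 598, 0 and 95 reads in sham rats and 403, 162, 0, 1236, 3 and 0 reads in PAB rats. Both had high values and 0 within each group, so the groups overlapped. Predicted miR466-3p had 0, 983 and 1 reads in sham rats and 0, 0, 523, 0, 0 and 764 reads in PAB rats. Predicted miR534-5p had 0, 383 and 62 reads in sham rats and 527, 0, 6, 305, 786 and 1 reads in PAB rats. The former was at 523 reads or more in 3 rats and at 0 or 1 in the other 6, and the latter covered the range between.
Predicted miR207-5p had 663, 0 and 762 reads in sham rats and 610 reads in PAB rat 5, against 0 in each of the other 5 PAB rats. Predicted miR404-5p had 1203, 2 and 0 reads in sham rats and 1, 0, 0, 0, 299 and 0 reads in PAB rats. These 2 miRNAs were both high in sham library 1 and PAB library 5. Predicted miR352-3p had 1467 reads in PAB rat 2, a single read in PAB rat 3 and no read in the other 7 libraries. Predicted miR649-5p had 0, 96 and 1 reads in sham rats and 688, 0, 57, 484, 87 and 16 reads in PAB rats, and predicted miR273-3p had 1, 292 and 0 reads in sham rats and 441, 0, 7, 509, 1 and 0 reads in PAB rats. Both of the latter were highest in PAB libraries 1 and 4 and, within the sham group, in sham library 2.

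**Figure D2:**
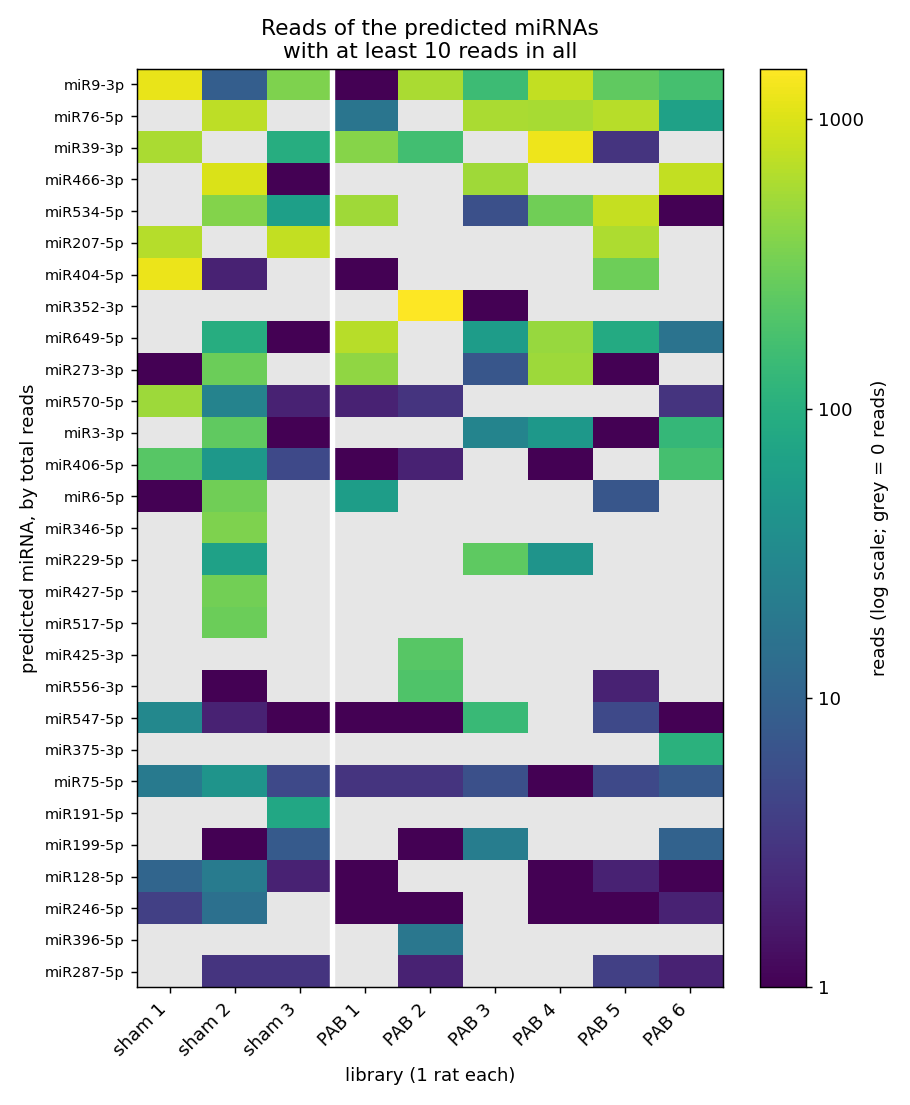
Reads of the 29 predicted miRNAs with at least 10 reads in all (rows, by total reads) in each of the 9 libraries (columns, a white line between sham and PAB). Colour is the read count on a log scale and grey is 0 reads, and 16 of the 17 rows that reach 100 reads in a PAB library also hold a grey PAB cell.

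A second set of 12 predicted miRNAs had 100 or more but fewer than 1000 reads in all. Predicted miR570-5p had 515, 26 and 2 reads in sham rats and 2, 3, 0, 0, 0 and 3 reads in PAB rats. Predicted miR3-3p had 0, 253 and 1 reads in sham rats and 0, 0, 27, 49, 1 and 132 reads in PAB rats, and predicted miR406-5p had 222, 49 and 5 reads in sham rats and 1, 2, 0, 1, 0 and 176 reads in PAB rats. In each of these 3 the highest sham library was above every PAB library, and another sham library had 5 reads or fewer. Predicted miR6-5p had 1, 306 and 0 reads in sham rats and 58, 0, 0, 0, 7 and 0 reads in PAB rats. Predicted miR229-5p had 65 reads in sham rat 2, 244 reads in PAB rat 3 and 44 in PAB rat 4, with none elsewhere, and predicted miR547-5p had 30, 2 and 1 reads in sham rats and 1, 1, 142, 0, 5 and 1 reads in PAB rats. The last 2 were highest in PAB library 3. Predicted miR556-3p had 200 of its 203 reads in PAB library 2. The other 5 of the 12 were seen in 1 library alone, namely predicted miR346-5p (368 reads), miR427-5p (317 reads) and miR517-5p (293 reads) in sham library 2, miR425-3p (226 reads) in PAB library 2 and miR375-3p (108 reads) in PAB library 6.
Among the 7 predicted miRNAs with 10 to 99 reads, predicted miR75-5p was the second that all 9 libraries held, with 20, 44 and 5 reads in sham rats and 3, 3, 6, 1, 5 and 8 reads in PAB rats. Predicted miR128-5p had 11, 21 and 2 reads in sham rats and 1, 0, 0, 1, 2 and 1 reads in PAB rats, and predicted miR246-5p had 4, 15 and 0 and then 1, 1, 0, 1, 1 and 2. All 3 were highest in sham library 2. Predicted miR191-5p had its 80 reads in sham library 3 and predicted miR396-5p its 18 reads in PAB library 2. Predicted miR199-5p (42 reads in 5 libraries) was highest in PAB library 3 with 22 reads, and predicted miR287-5p (14 reads in 5 libraries) had at most 4 reads in a library.
The remaining 29 predicted miRNAs had 1 to 8 reads in all, and 13 of them had 1 read. Of these 29, 6 reached 3 libraries and so entered the test, namely predicted miR335-5p, miR410-5p and miR491-5p with 8 reads each and predicted miR183-5p, miR244-3p and miR482-5p with 3 reads each. Counts this low do not show whether a miRNA was absent from the other rats.

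Compared with miRBase-named miRNAs, the predicted ones were found in fewer rats. Of the 58, 25 (43.1%) were seen in 1 library, against 49 of 218 (22.5%) miRBase-named miRNAs, and 2 (3.45%) were seen in all 9 libraries, against 39 (17.9%). At least 3 libraries held 27 (46.6%) of the predicted and 135 (61.9%) of the miRBase-named miRNAs. In the median, 81.1% of the reads of a predicted miRNA lay in its highest library, against 62.5% for a miRBase-named one, and 84.9% against 59.1% when RPM was used in place of reads. A miRNA of 1 read has all of its reads in 1 library whatever its kind, and 29 predicted (50%) and 88 miRBase-named miRNAs (40.4%) had fewer than 10 reads. With at least 10 reads the medians were 60.0% (n = 29) and 55.8% (n = 130), and with at least 100 reads they were 73.4% (n = 22) and 51.6% (n = 86). The difference was not seen in every class of abundance. Below 10 reads both kinds had a median of 1 library. From 10 to below 100 reads both were seen in a median of 5 libraries, and the median share in the highest library was the lower for predicted miRNAs, 53.8% (n = 7) against 58.3% (n = 44). From 100 to below 1000 reads a predicted miRNA was seen in a median of 3 libraries and a miRBase-named one in 5, with 96.0% and 73.0% of the reads in the highest library. At 1000 reads or more the medians were 6 and 9 libraries, with 42.0% and 39.2%. Of those with at least 100 reads, 8 of 22 predicted (36.4%) and 16 of 86 miRBase-named miRNAs (18.6%) had over 90% of their reads in 1 library. miRNAs are not replicates, so these counts and medians are a description without a test.

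**Figure D3:**
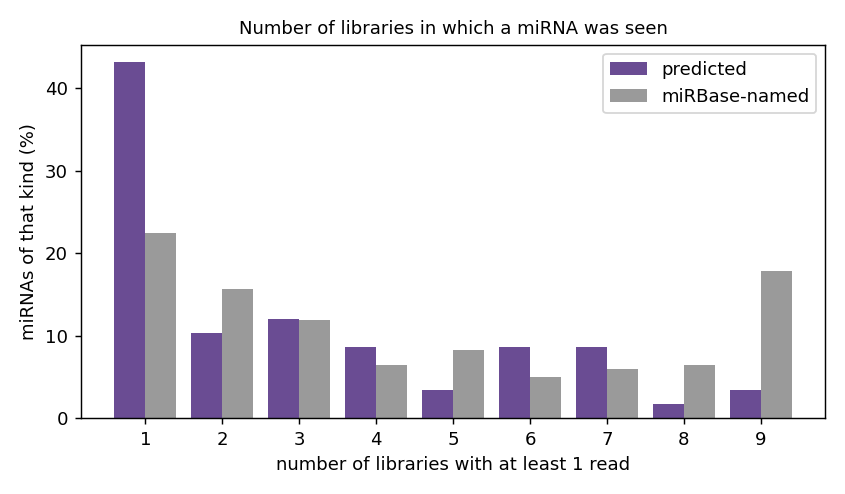
Share of the miRNAs of each kind (y axis, % of 58 predicted or 218 miRBase-named miRNAs) by the number of libraries with at least 1 read (x axis). The bar at 1 library is 43.1% for predicted and 22.5% for miRBase-named miRNAs, and the bar at 9 libraries is 3.45% and 17.9%.

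The on and off pattern held within each group. Of 15 predicted miRNAs that had at least 100 reads in a sham library, 12 (80.0%) were at 0 reads in another sham library, against 14 of 66 (21.2%) miRBase-named miRNAs. Of 17 that had at least 100 reads in a PAB library, 16 (94.1%) were at 0 reads in another PAB library, against 29 of 64 (45.3%). Predicted miR9-3p was the exception among the 17. With 6 PAB and 3 sham libraries the PAB group gave more chances for a 0, so the 2 groups are not to be compared by these shares. The 2 kinds were not matched for abundance here either. Totals reached 95895 reads among the miRBase-named miRNAs and 3486 among the predicted ones, and a more abundant miRNA is less likely to be at 0. The pattern was also seen in miRBase-named miRNAs, so it is not particular to the predicted ones. Of all 522 values of the predicted miRNAs (58 miRNAs in 9 libraries) 179 were above 0, and of these 60 (33.5%) were 1 read, 107 (59.8%) were 1 to 9 reads, 25 (14.0%) were 10 to 99 reads and 47 (26.3%) were 100 reads or more. For the 961 of 1962 values above 0 of miRBase-named miRNAs the shares were 25.3%, 53.7%, 14.9% and 31.4%. In both kinds the values between 10 and 99 reads were the least frequent class. The library preparation amplified by PCR, and no molecular identifiers are named in its description, so a high count may stem from fewer molecules, and every floor of 3 counts given here covers counting error only.

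Counted by library instead of by miRNA, the same values again gave a lower share detected for the predicted miRNAs. This restates the counts of libraries per miRNA above and is not a further result. The p-value for detection below measures the spread between libraries and not that between miRNAs, and the 2 kinds were not matched for read totals. In the sham libraries 25.9%, 58.6% and 34.5% of the 58 were detected, against 72.5%, 83.9% and 50% of the 218 miRBase-named miRNAs. In PAB libraries 1 to 6 it was 34.5%, 34.5%, 24.1%, 27.6%, 37.9% and 31.0% of the predicted, against 40.8%, 39.4%, 30.7%, 33.5%, 38.1% and 51.8% of the miRBase-named miRNAs. The predicted share was the lower in 9 of 9 libraries, by 0.14 (PAB library 5) to 46.6 percentage points (sham library 1), with a mean difference of −14.7 ± 14.5 percentage points (SD, n = 9; exact two-sided sign-flip permutation test over the libraries, p = 0.00391, the smallest that 512 sign flips allow). For the level of detected miRNAs no difference exceeded the spread between libraries. The median log2 reads, predicted minus miRBase-named, differed by −0.41 ± 2.02 (SD, n = 9), with 6 of 9 libraries below 0 and a range of −3.99 to 2.61 (exact sign-flip permutation test, p = 0.590).
The difference in detection was larger in the sham group, at −29.2 ± 15.9 percentage points (SD, n = 3), than in the PAB group, at −7.46 ± 6.96 (SD, n = 6). This difference of 21.7 points had p = 0.0238 by the exact permutation test, but the adjusted p was 0.0929 over the 13 values, and without sham library 1 the difference was 13 points and without sham library 2 it was 23.6 points, with exact p = 0.0714 each.

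**Figure D4:**
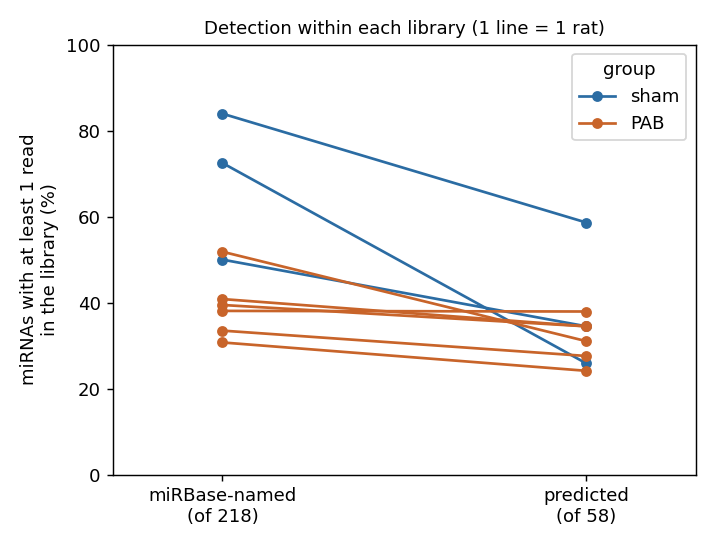
Share of miRNAs with at least 1 read in a library (y axis, %) among the 218 miRBase-named and the 58 predicted miRNAs (x axis). Each line joins the 2 values of 1 library, sham in blue and PAB in orange, and all 9 lines fall from left to right, that of PAB library 5 by 0.14 percentage points.

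In numbers, 15, 34 and 20 predicted miRNAs were detected in the sham libraries and 20, 20, 14, 16, 22 and 18 in the PAB libraries. Sham library 2 stood above all others and sham library 1 below all but 1, so the groups overlapped. The means were 23.0 ± 9.85 (SD, n = 3) and 18.3 ± 2.94 (SD, n = 6), with p = 0.345 (exact permutation test, adjusted p = 0.561), and without sham library 2 the PAB mean was the higher by 0.833. The miRBase-named miRNAs numbered 150.0 ± 37.6 (SD, n = 3) and 85.2 ± 16.0 (SD, n = 6), with p = 0.0238 (exact permutation test, adjusted p = 0.0929). With all libraries thinned to 19477 miRNA reads, the total of the smallest, the expected numbers of predicted miRNAs were 16.1 ± 6.20 (SD, n = 3) and 14.6 ± 3.0 (SD, n = 6), with p = 0.690 (exact permutation test, adjusted p = 0.748). At 100 reads or more the predicted miRNAs numbered 5.67 ± 3.51 (SD, n = 3) and 5.0 ± 0.632 (SD, n = 6), with p = 0.643 (exact permutation test, adjusted p = 0.748), and every PAB library held 4 to 6 of them. Which ones these were changed from rat to rat, as listed above. Sham library 2 held 9 predicted miRNAs that no other library held, PAB library 2 held 4, PAB library 4 held 3 and each of the others 1 or 2. Among the miRBase-named miRNAs 27 were found in sham library 2 alone and 12 in sham library 1 alone, against 0 in each of PAB libraries 2, 3 and 5.

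In the comparison of PAB with sham, 27 of the 58 predicted miRNAs were above 0 in at least 3 of the 9 libraries and were tested with edgeR's quasi-likelihood test together with 135 miRBase-named miRNAs. A miRNA was called where the Benjamini-Hochberg adjusted p was at most 0.05 and the log2 fold change (log2FC, PAB against sham) at least 1 in size. Of the 27, 0 were called higher and 0 lower in the PAB group, where the background over all 162 tested miRNAs was 0% called higher and 1.23% called lower. At an unadjusted p under 0.05 edgeR gave 2 higher (7.41%) and 1 lower (3.7%) of the 27, against 4.32% and 10.5% of all 162. limma-voom called 0 of the 27, and 0% of all 162 in either direction, and DESeq2 called 1 of the 18 predicted miRNAs to which it gave an adjusted p. The adjusted p from edgeR ran from 0.147 to 0.982 and the log2FC from −5.01 to 7.22. The log2FC was above 0 in 18 of the 27 with a median of 0.79, against a median of −0.15 over all 162. These directions moved with the scaling. With TMM factors replaced by the summed reads of each library, 14 of 27 were above 0 with a median of 0.47 (all miRNAs −0.85), with the totals implied by RPM 13 were above 0 with a median of −0.33 (all miRNAs −1.54), and with DESeq2's size factors 19 were above 0 with a median of 1.20 (all miRNAs 0.067). The common biological coefficient of variation, edgeR's measure of the spread between rats, was 1.74.
The 3 with the smallest p were predicted miR491-5p, miR570-5p and miR556-3p. Predicted miR491-5p had 2, 4 and 2 reads in PAB libraries 1, 2 and 5 and 0 reads in the other 6 libraries (log2FC 4.27, standard error 1.48, edgeR adjusted p = 0.147), and its fitted log2FC rests on 8 reads and depends on the prior count. In PAB rats its mean was at least 1.19-fold higher than the sham floor (3 counts over the 3 libraries, 0.0648 RPM). Predicted miR570-5p was at 14.2 ± 23.1 RPM (SD, n = 3) in sham rats and 0.0883 ± 0.105 RPM (SD, n = 6) in PAB rats (log2FC −5.01, standard error 2.05, edgeR adjusted p = 0.188), and without sham library 1, which held 515 of its 551 reads, the log2FC was −1.44. Predicted miR556-3p had a log2FC of 7.22 (standard error 3.21, edgeR adjusted p = 0.230) from the 200 reads of PAB library 2. Each of the 3 thus rests on a few reads or on 1 rat.

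**Figure D5:**
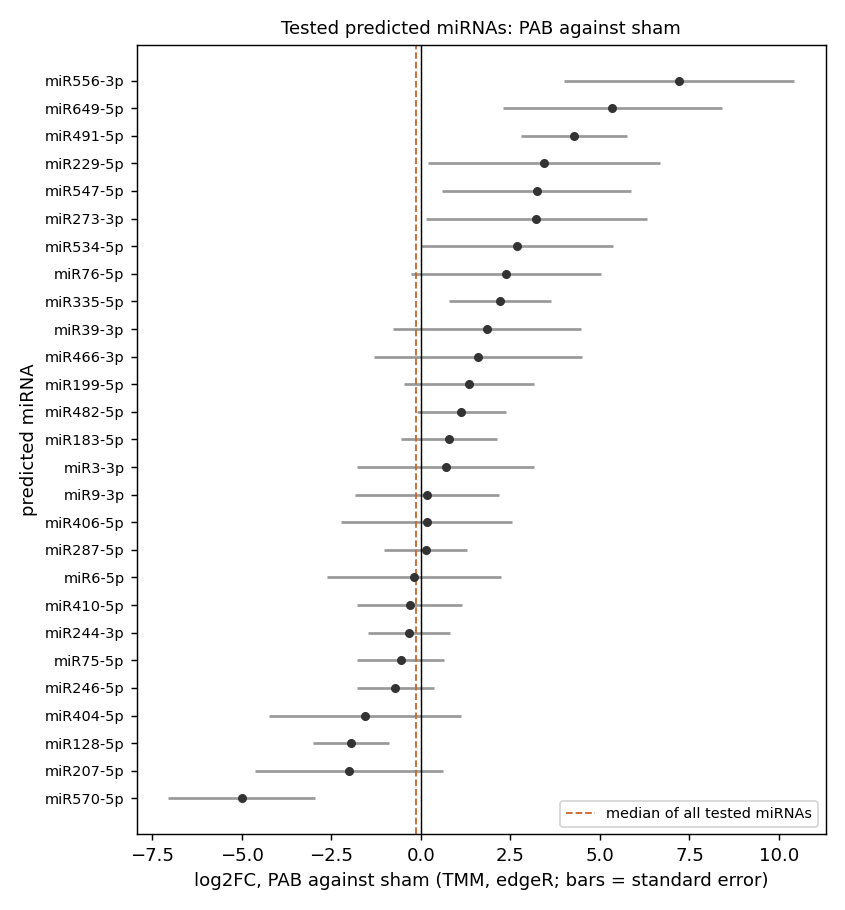
The log2FC of the 27 tested predicted miRNAs (x axis, PAB against sham after TMM, edgeR, bars are ± 1 standard error of the fit over 3 sham and 6 PAB libraries). The points run from −5.01 for miR570-5p to 7.22 for miR556-3p, the dashed line is the median of all 162 tested miRNAs (−0.15), and none was called.

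Among the abundant predicted miRNAs the standard errors exceeded 2 on the log2 scale. Predicted miR649-5p was at 1.93 ± 3.29 RPM (SD, n = 3) in sham rats and 12.8 ± 16.3 RPM (SD, n = 6) in PAB rats (log2FC 5.35, standard error 3.06, edgeR adjusted p = 0.351). With DESeq2, run on the same miRNAs, it was called higher (log2FC 6.15, adjusted p = 0.0451). It was not called by DESeq2 on all miRNAs without its filters (log2FC 5.08, DESeq2 adjusted p = 0.148). limma-voom did not call it either (log2FC 4.98, limma-voom adjusted p = 0.565). By edgeR its log2FC was 9.32 without sham library 2 and 3.62 without PAB library 1. It was the 1 called of those 18 (5.56%), against a background of 8.41% of 107 called higher, and 0 were called lower against 3.74%. Predicted miR9-3p, the most abundant, was at 38.6 ± 49.1 RPM (SD, n = 3) and 20.7 ± 18.9 RPM (SD, n = 6), with a log2FC of 0.17 (standard error 2.02, edgeR adjusted p = 0.982) that was −0.30 with library totals and −0.90 with the totals implied by RPM. Predicted miR207-5p, at 32.5 ± 28.4 RPM (SD, n = 3) in sham rats and 5.31 ± 13 RPM (SD, n = 6) in PAB rats, had a log2FC of −2.02 (standard error 2.63, edgeR adjusted p = 0.794). Predicted miR404-5p, at 31.8 ± 55.0 RPM (SD, n = 3) and 2.61 ± 6.37 RPM (SD, n = 6), had a log2FC of −1.56 (standard error 2.68, edgeR adjusted p = 0.865), which turned to 6.71 without sham library 1 and was −8.24 without PAB library 5. Predicted miR76-5p (2.37), miR534-5p (2.68), miR273-3p (3.23), miR39-3p (1.84) and miR466-3p (1.59) had log2FC above 0 with adjusted p of 0.641 to 0.871 from edgeR, and single libraries moved these values widely. Without sham library 2 the log2FC was 11.7 for miR76-5p, 8.84 for miR466-3p and 9.73 for miR273-3p. Without PAB library 1 it was 1.66 for miR273-3p and 1.69 for miR534-5p, without PAB library 3 it was 0.92 for miR466-3p, and without PAB library 4 it was 1.19 for miR39-3p. None of these differences exceeded the spread between rats by edgeR's test.
Predicted miR75-5p, the other miRNA present in every rat, was at 1.5 ± 1.17 RPM (SD, n = 3) and 0.281 ± 0.20 RPM (SD, n = 6), with a log2FC of −0.57 (standard error 1.22, edgeR adjusted p = 0.912). Predicted miR128-5p, seen in 7 libraries, was at 0.748 ± 0.578 RPM (SD, n = 3) and 0.0498 ± 0.0423 RPM (SD, n = 6), with a log2FC of −1.95 (standard error 1.06, edgeR adjusted p = 0.345). With the totals implied by RPM its log2FC was −3.70 (edgeR adjusted p = 0.0418) and it was called lower, as the 1 of 27 (3.7%) against a background of 14.2% called lower on that scale, where the median of all tested miRNAs was −1.54. The log2FC of the other 13 tested predicted miRNAs lay within the range of the plot of log2FC and none was called.

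The remaining 31 predicted miRNAs were above 0 in 1 or 2 libraries and did not enter that test. By number of rats with reads, Fisher's exact two-sided test gave no p below 0.226 for any predicted miRNA (adjusted p = 0.800 over all 276 miRNAs), and a miRNA seen in 1 rat cannot reach the threshold. Altogether 13 predicted miRNAs (22.4%) were seen in sham libraries alone, 15 (25.9%) in PAB libraries alone and 30 (51.7%) in both groups, against 30.1%, 9.42% and 60.5% of all 276 miRNAs. The miRBase-named miRNAs leaned to the sham group, with 70 seen there alone and 11 in PAB libraries alone, and this balance was not tested. Of the 22 with at least 100 reads in any library, 10 (45.5%) reached this level in both groups, 5 (22.7%) in the sham group alone and 7 (31.8%) in the PAB group alone, against 55.8%, 22.1% and 22.1% of the 104 miRNAs of either kind with such a library.
The study names 3 of these 31, predicted miR352-3p, miR375-3p and miR425-3p. It counted these 3 as upregulated and then set them aside as candidates because their counts in single samples were low. No sham library held a read of them, and in PAB rats their mean RPM exceeded the sham floor of 0.0648 RPM at least 242-fold, 21.7-fold and 37.2-fold, each from 1 rat. In the other direction predicted miR346-5p, miR427-5p and miR517-5p were at 0 reads in every PAB rat, and in sham rats their mean RPM exceeded the PAB floor (3 counts over the 6 libraries, 0.0307 RPM) at least 239-fold, 205-fold and 189.9-fold, each from sham library 2. Predicted miR191-5p (at least 51.2-fold, from sham library 3) was of the same kind. Reads of 1 rat thus gave bounds of similar size in both directions.
DESeq2 applied to all 276 miRNAs without its filters called predicted miR352-3p, miR375-3p and miR425-3p higher (3 of 58, 5.17%, against a background of 2.9%) and predicted miR346-5p, miR427-5p, miR517-5p and miR570-5p lower (4 of 58, 6.9%, against 3.26%). Its size factors were also of another kind here, estimated from the counts above 0, so the calls differ from those above by more than the filters. edgeR without a filter called predicted miR396-5p higher (1 of 58, 1.72%, against 0.362%) and predicted miR191-5p, miR346-5p, miR427-5p and miR517-5p lower (4 of 58, 6.9%, against 3.62%). Predicted miR396-5p had its 18 reads in PAB library 2. Apart from miR570-5p, each predicted miRNA called in these 2 fits had all its reads, or in the case of miR352-3p all but 1 read, in the serum of 1 rat.

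By arm, the predicted miRNAs were mostly 5p, with 41 of 58 (70.7%) named 5p and 17 (29.3%) named 3p. Of the miRBase-named miRNAs with an arm in their name, 107 (55.2%) were 5p and 87 (44.8%) were 3p, and 24 had no arm in the name. The reads were spread more evenly, since the 17 predicted 3p miRNAs held 11988 reads (48.0%) and the 41 predicted 5p miRNAs 12964 reads. Of these 3p reads the most came from predicted miR9-3p (3486), miR39-3p (2497), miR466-3p (2271), miR352-3p (1468) and miR273-3p (1251). No predicted number occurred with both arms, whereas 37 precursor names of miRBase-named miRNAs did. For a predicted hairpin, reads of the second arm are part of the usual evidence for processing by Dicer. Whether the prediction could list both arms of a hairpin, or would give them the same number, is not stated in the sources used here. The absence of a second arm may thus stem from the naming, and processing by Dicer was not tested.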

How the data were processed

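The deposited table of the authors holds whole reads (counts, not normalized) and RPM per library for 276 miRNAs. The authors' RPM is the deposited count divided by 1 total per library (largest difference 0.00127 RPM). Serum RNA was made into adaptor-ligated, PCR-amplified small RNA libraries. The paper's methods place reads on the rat genome Rnor_6.0 and compare them with miRBase and Rfam, whereas Bowtie2 2.2.9 and GRCh38.p13, a human build, stand in the submitters' processing notes. The prediction program, the counting rule and how reads shared between entries were counted are not given in the sources used here.

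For testing the counts, edgeR 4.0.16 under R 4.3.3 was used (TMM factors, quasi-likelihood test, miRNAs with at least 1 read in 3 of 9 libraries, adjustment over all 162). The study's own test was DESeq2. Standard errors are |log2FC| over the root of the F statistic. Permutation tests of single values used the absolute difference of means over all 84 splits, where no p below 0.0119 is possible. Thinning gave the expected number of miRNAs at 19477 reads. Floors are 3 counts over a group. Libraries held 19477 to 65313 miRNA reads. Alternatives were other scalings and filters, DESeq2 1.42.0, limma-voom (limma 3.58.1), other detection limits, the library number as a block and leaving out each library. DESeq2 on all miRNAs without its filters and the test of the log2 ratio of detection were added after the data were seen. Named are the predicted miRNAs that the study names, those in at least 3 libraries, the 10 with the most reads, those called by any tool, and the 5 miRBase-named miRNAs with the largest mean share, with the namesakes added after their values were seen. The members, lists and tests were chosen with earlier results of these data known. Scripts were tested on simulated data and used Python 3.11.15 (with pandas 2.3.3, numpy 2.4.6, matplotlib 3.10.9 and scipy 1.17.1). Nothing in the labels says how serum was split before extraction, so p-values measure the spread between these libraries.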

Additional observations from a re-analysis of the deposited data

Results flagged for a closer look

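In the PAB group (n = 6), 13 of 22 sets of values examined held 1 library far from the others, where the gap to its nearest neighbour exceeded Dixon's 95% critical value for 6 samples. The sets were the predicted miRNAs with at least 10 reads in a PAB library, the number of predicted miRNAs detected and their share of the miRNA reads. The miRBase-named miRNAs were not examined in this way, so the flags are not shown to be particular to the predicted ones. Chance alone flags about 1 in 20 sets of normally spread values, and counts with many zeros are not of that kind. PAB library 2 stood apart for predicted miR352-3p (1467 reads), miR425-3p (226 reads), miR556-3p (200 reads) and miR396-5p (18 reads). PAB library 6 stood apart for predicted miR406-5p (176 reads), miR3-3p (132 reads) and miR375-3p (108 reads). PAB library 3 did so for predicted miR229-5p (244 reads) and miR547-5p (142 reads), and PAB library 5 for predicted miR207-5p (610 reads) and miR404-5p (299 reads). PAB library 4 stood apart for predicted miR39-3p (1236 reads) and PAB library 1 for predicted miR6-5p (58 reads). Each of the 6 PAB libraries was thus the high one for at least 1 predicted miRNA. With 3 libraries the sham group was too small for this comparison.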

How the results depend on the processing

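Among the predicted miRNAs edgeR called 0 higher and 0 lower under each scaling, filter and left-out library tried, except 1 higher and 4 lower with no filter and 1 lower with the totals implied by RPM. DESeq2 called 1 higher, and 3 higher and 4 lower on all miRNAs without its filters. The log2FC of predicted miR9-3p turned to −0.30 with library totals, −0.90 with the totals implied by RPM, −0.87 with at least 10 reads in 3 libraries, −0.95 with the replicate block and −0.50 with the same 6 libraries unblocked, and ran from −0.41 to 0.62 with 1 library left out. That of miR466-3p turned to −0.33 with the totals implied by RPM, and that of miR534-5p to −2.90 with the replicate block. With 1 library left out miR404-5p ran from −8.24 to 6.71, the PAB minus sham difference in predicted miRNAs detected from −8.67 to 0.833, that in the share of reads from −0.123 (without sham library 3) to 2.05 percentage points, and that in detection against miRBase-named miRNAs from 13 to 28.5 points (p from 0.0179 to 0.0714 in exact permutation tests). The summed RPM of predicted miRNAs differed by −77.4. The level of detected miRNAs against miRBase-named ones ran from −0.78 to 0.040 (without PAB library 2). The excess of the median share in the highest library was 4.16 points with at least 10 reads, against 18.6. The cause of these changes was not tested. The deviations of same-numbered libraries from their group means had correlations of −0.15, −0.35 and 0.030. With 3 sham libraries these values cannot decide whether a shared number marks a pair. With the number as a block 0 predicted miRNAs were called higher or lower. Of the other values for single predicted miRNAs, 245 kept their direction and side of the threshold, and 3 passed it (miR649-5p with DESeq2, miR570-5p with DESeq2 on all miRNAs and miR128-5p with the totals implied by RPM). Depth limits the 29 predicted miRNAs with fewer than 10 reads, whose absence from a library cannot be told apart from sampling.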
